A study of Mus musculus with 8 samples.

Results

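The NF-κB pathway genes examined here are the subunits of the transcription factor, its inhibitors, the TRAF adaptors and the kinases upstream, a list of 33 genes. Each was read from array probe sets annotated to that symbol alone, and of several for a gene, the one brightest on average across the 8 arrays was used. This gave values for 29 of the 33 members, among 19937 genes in all. Nfkb1, Chuk, Ripk1 and Traf3 were not analysed here.

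The arrays measured RNA of regulatory T cells (Tregs), CD4+ T cells that restrain immune responses. Every recipient mouse lacked CD3ε, a part of the T cell receptor (TCR) complex, so that its own T cells do not form, and was lethally irradiated before bone marrow transfer. In 4 samples the marrow came from mice labelled IIKO (IIKO-CD3KO chimeras, called IIKO), whose peripheral Tregs the labels describe as lacking interactions of the TCR with MHC class II. In the other 4 it came from wild-type mice (WT-CD3KO chimeras, called WT), in which these interactions are kept. All are labelled C57BL/6 and 6 to 8 weeks old. The CD4+ TCRβ+ CD25+ population was sorted from peripheral lymph nodes and spleen 28 days after marrow transfer. Cells of the host that do not derive from marrow were its own in both groups. The labels do not name the disrupted class II gene or say whether mice were pooled, and they do not tell an effect of the marrow on the cells' development from one in the periphery. p-values therefore measure the spread between these samples.

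NF-κB is a family of dimeric transcription factors held inactive in the cytoplasm by IκB proteins. In the canonical branch, antigen receptors, TNF receptors and Toll-like receptors activate the IKK complex, which marks IκBα for destruction and frees dimers that contain RelA or c-Rel. In the non-canonical branch, TRAF and cIAP proteins keep the kinase NIK low until a receptor such as CD40 or OX40 removes them, and NIK then drives the processing of p100 to p52, the partner of RelB. In T cells the TCR and CD28 reach IKK through BCL10 and MALT1, and c-Rel is needed for the normal formation of Tregs in the thymus. Several inhibitors, among them IκBα and A20, are themselves transcribed by NF-κB.

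The samples carried the transcripts that define Tregs. Foxp3, the transcription factor of the lineage, was at 10.68 ± 0.12 in IIKO and 10.63 ± 0.04 in WT (log2, SD, n = 4 arrays each). Il2ra, the gene of CD25, was at 12.18 ± 0.08 in IIKO and 12.01 ± 0.04 in WT. Of 8 Treg and T cell markers, 5 had a higher mean in IIKO and 3 a lower one (lowest limma adjusted p = 0.211). For Il2ra, Ctla4 and Ikzf2 every IIKO array lay above every WT array. That separation was found for 2.83% of all genes and 4.95% of the brighter 9969. The CD3 chain genes Cd3d, Cd3g and Cd3e differed by -0.07, -0.06 and -0.03 (IIKO minus WT). Markers of B cells (8 measured of 9) averaged 5.93 to 6.06 per array in IIKO and 5.93 to 6.17 in WT, those of myeloid and dendritic cells (10 of 10) 6.05 to 6.43 in IIKO and 6.12 to 6.30 in WT, and those of NK and CD8 T cells (7 of 7) 6.67 to 6.73 in IIKO and 6.61 to 6.97 in WT. Within the last list Gzma, a granzyme, was at 8.54 ± 0.12 in IIKO and 9.33 ± 0.71 in WT (SD, n = 4 arrays each), with WT arrays 2 and 3 the highest at 10.08 and 9.77. Klrd1, an NK receptor chain, was at 6.49 ± 0.27 in IIKO and 6.09 ± 0.31 in WT. Markers of activated conventional T cells, which a sort on CD4, TCRβ and CD25 would not remove, were measured for 5 of 6 genes and averaged 7.01 to 7.33 per array in IIKO and 6.75 to 7.26 in WT. Among them Cd40lg, the ligand of CD40, was at 7.60 ± 0.40 in IIKO and 6.98 ± 0.31 in WT, and Il2 was also higher on average in IIKO. Others went the other way or differed little. Il17a was at 6.39 ± 0.03 in IIKO and 6.52 ± 0.04 in WT, and Ifng at 8.55 ± 0.31 and 8.63 ± 0.65. Il4 was at 6.77 ± 0.13 in IIKO and 6.73 ± 0.18 in WT. The part of activated conventional T cells in the members' differences was not tested. Array medians ran from 6.96 to 7.03, and precision is limited by having 4 arrays a group. Less RNA per cell and fewer cells of a type cannot be told apart in bulk samples.

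Because many genes of this pathway are also its targets, their promoters were read for the DNA motif that NF-κB binds. The RefSeq windows (GRCm38.p6) run from 250 bases before to 50 bases after an annotated start. Of the 29 members, 25 had a window, and Malt1, Ikbkb, Relb and Nfkbiz were without one. Both 9-base spellings searched were read on both strands. The spelling GGGNNTTCC (GGAANNCCC on the other strand) was found for 9 of the 25 genes (Rel, Nfkb2, Birc2, Tank, Nfkbid, Tnfaip3, Bcl3, Nfkbie and Tnip1), in 12 of their 38 windows, against 5.82% of all 32851 windows. The spelling GGGNNTTTC (GAAANNCCC) was also found for 9 (Map3k7, Rel, Rela, Nfkb2, Traf2, Tank, Cyld, Nfkbia and Tnfaip3), in 14 of the 38 windows, against 4.36% of all windows. The spellings can overlap each other by 8 bases, and windows of 1 gene can overlap too; 1 or both were in 19 of the 38 windows and in 9.53% of all windows. The windows below, of 5 members described further on, show what these matches look like. Each is written 5′ to 3′ on the gene's strand, with the matches in capitals.

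Nfkb2, chr19:46304487-46304786, plus strand: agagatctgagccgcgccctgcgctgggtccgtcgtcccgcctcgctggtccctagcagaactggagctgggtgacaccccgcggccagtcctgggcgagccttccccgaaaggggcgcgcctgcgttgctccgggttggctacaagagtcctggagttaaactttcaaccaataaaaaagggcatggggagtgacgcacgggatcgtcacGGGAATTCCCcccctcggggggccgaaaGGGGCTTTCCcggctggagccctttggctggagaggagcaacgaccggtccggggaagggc
Birc2, chr9:7837008-7837307, minus strand: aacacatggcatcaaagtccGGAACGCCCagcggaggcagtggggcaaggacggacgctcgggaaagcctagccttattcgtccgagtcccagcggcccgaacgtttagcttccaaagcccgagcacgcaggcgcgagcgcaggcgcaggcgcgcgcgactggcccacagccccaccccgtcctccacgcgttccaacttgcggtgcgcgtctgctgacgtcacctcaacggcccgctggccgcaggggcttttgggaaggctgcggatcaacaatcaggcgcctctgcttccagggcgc
Nfkbia, chr12:55492598-55492897, minus strand: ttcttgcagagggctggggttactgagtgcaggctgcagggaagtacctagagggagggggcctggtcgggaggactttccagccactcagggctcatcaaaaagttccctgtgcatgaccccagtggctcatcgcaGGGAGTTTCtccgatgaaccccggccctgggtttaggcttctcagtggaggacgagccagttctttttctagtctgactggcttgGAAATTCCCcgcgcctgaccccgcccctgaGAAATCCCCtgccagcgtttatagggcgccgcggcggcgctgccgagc
Tnfaip3, chr10:19015361-19015660, minus strand: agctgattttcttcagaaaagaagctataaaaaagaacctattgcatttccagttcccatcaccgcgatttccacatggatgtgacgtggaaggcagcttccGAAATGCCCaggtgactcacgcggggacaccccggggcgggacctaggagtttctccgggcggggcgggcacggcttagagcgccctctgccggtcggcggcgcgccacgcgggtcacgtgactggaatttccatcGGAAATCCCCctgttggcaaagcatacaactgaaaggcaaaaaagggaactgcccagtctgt
Nfkbie, chr17:45555450-45555749, plus strand: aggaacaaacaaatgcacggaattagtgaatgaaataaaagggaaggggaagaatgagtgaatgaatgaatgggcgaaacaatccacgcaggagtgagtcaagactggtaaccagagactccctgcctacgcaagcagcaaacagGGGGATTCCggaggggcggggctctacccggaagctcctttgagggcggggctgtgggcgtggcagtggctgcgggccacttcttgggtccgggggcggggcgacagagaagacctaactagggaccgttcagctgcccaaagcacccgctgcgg

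In Nfkb2 the matches form a pair close to the start, GGGAATTCC from 39 bases and GGGCTTTCC from 10 bases before it. In Nfkbia 3 matches were found, among them GAAATTCCC from 28 bases before the start. Tnfaip3 carried GGAAATCCC from 12 bases before the start. The single matches of Nfkbie (GGGGATTCC) and Birc2 (GGAACGCCC) began 105 and 230 bases before it. These spellings were chosen after longer ones had been counted in the same windows. A match describes letters in a window, not a measured binding site.

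None of the 29 members passed the test over all genes, and 27 of them (22 after a further quantile normalization) had a higher mean in IIKO than in WT (limma, Benjamini-Hochberg adjusted over 19937 genes; the lowest adjusted p of a member was 0.194, for Nfkb2). Over all genes, 0.286% passed that test. The differences were small, with a median of 0.13 log2 over the members, against -0.04 over all genes and 0.01 over the brighter 9969 genes. With no adjustment, 5 members had a limma p under 0.05 with a higher mean in IIKO, and 0 with a lower one. The 5 were Malt1 of the canonical branch, Nfkb2 of the non-canonical branch, Traf1, Traf2 and Nfkbiz, a nuclear IκB grouped with the inhibitors. Malt1, Nfkb2 and Traf1 lay under it in all 16 alternatives run on each, Nfkbiz in 9 and Traf2 in 8. Leaving out any 1 of 6 arrays took Traf2 past it, and the same held for 6 arrays with Nfkbiz. Over all genes, 17.3% lay under that p, 5.27% higher and 12.0% lower. The share of members, 17.2%, was near the 17.3% in both directions together, but all of it was higher in IIKO. Among the brighter 9969 genes, where all members lie, 8.95% were higher at that p. This contrast was not tested. Without IIKO array 2, WT array 1 or IIKO array 4, the count of higher members at that p was 3, 8 and 10. The share of all genes under that p, in both directions, was 14.5%, 15.1% and 20.3% in those fits. For 0 of the 29 members were the 2 groups of arrays fully apart, while 10.5% of all genes had groups that did not overlap (2.83% higher, 7.69% lower). Among the brighter 9969 genes that share was 9.44%, with 4.95% higher.

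**Figure D1:**
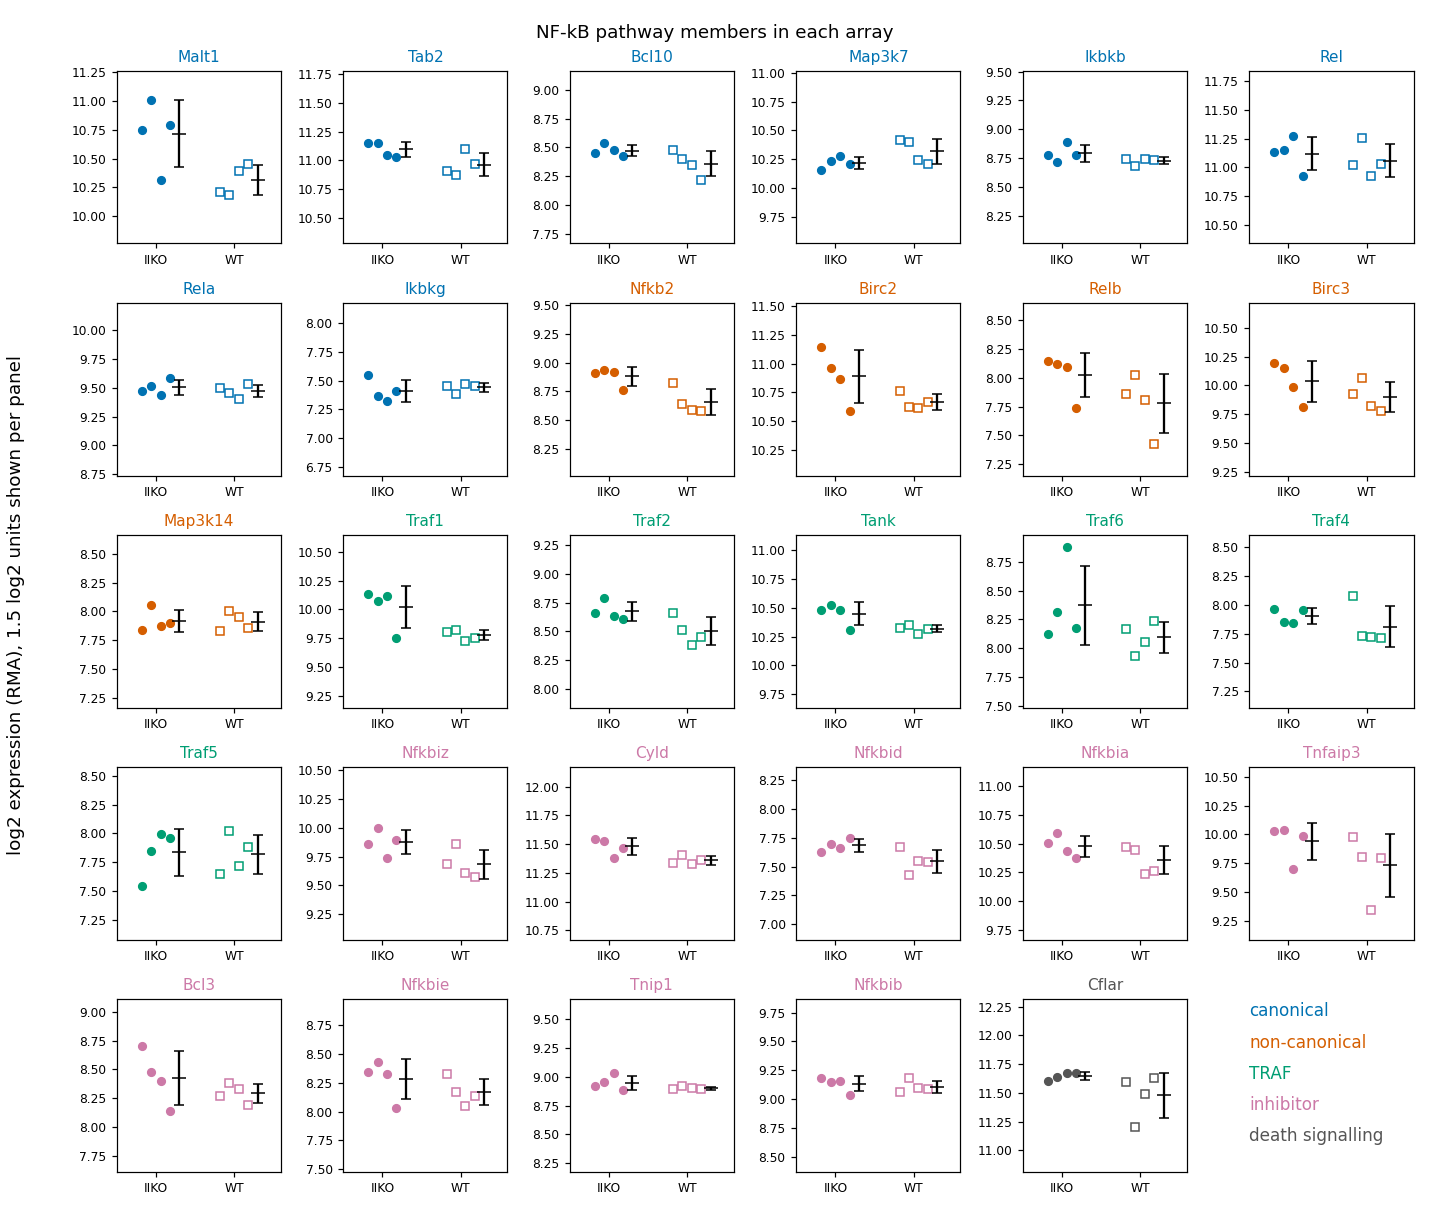
Log2 expression of each of the 29 members in the 4 IIKO arrays (filled circles, left) and the 4 WT arrays (open squares, right), in panels that each span 1.5 log2 units and are coloured by branch; bars give the mean and SD of each group. In none of the 29 panels are the groups fully apart.

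**Figure D2:**
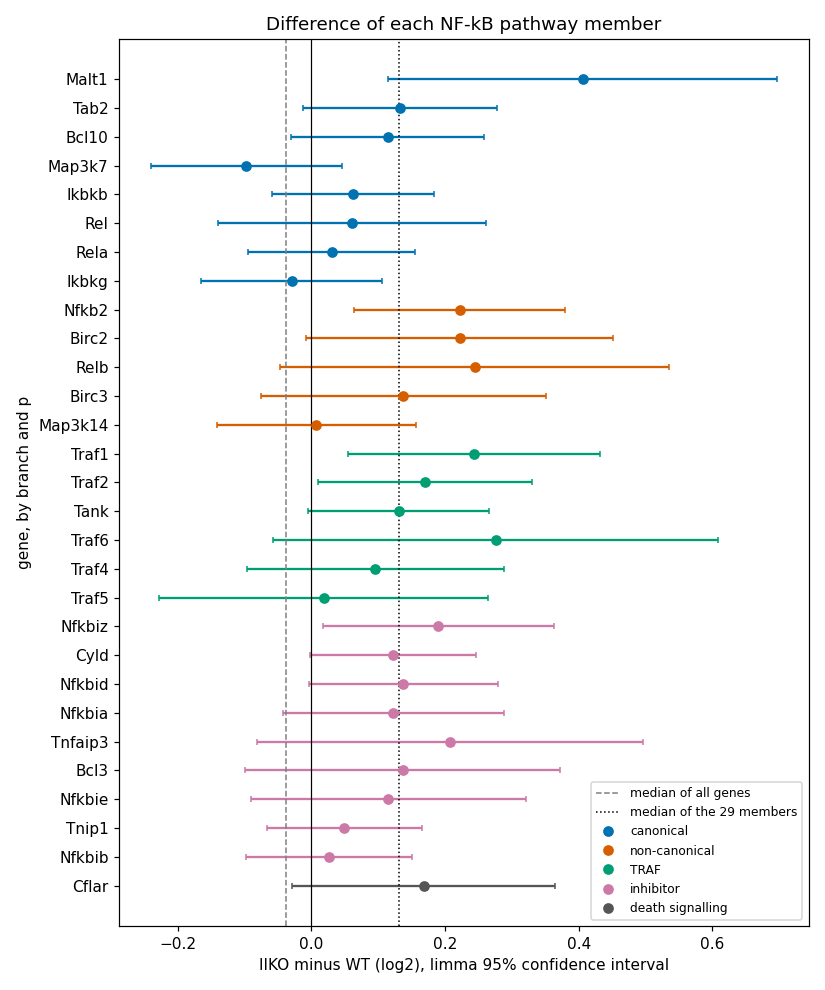
Difference of each member, IIKO minus WT in log2, with limma's 95% confidence interval, ordered by branch and p; lines mark the median of all genes (dashed) and of the 29 members (dotted). Intervals lie above 0 for 5 members, and 27 of the 29 points lie to the right of 0.

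The intervals bound what these arrays leave possible. For all 29 members the 95% confidence interval excluded a difference of 1 log2 in either direction, and for 26 it excluded 0.5 log2. The bounds over all members ran from -0.24 (Map3k7) to 0.70 (Malt1). Differences between 0 and 0.1 were found for 8 members, from 0.1 to 0.2 for 12, and of 0.2 or more for 7. On simulated arrays with independent noise and 200 changed genes among 19937, the fit called 13.2% of genes changed by 0.25 log2 and 89.0% of those changed by 0.5. These shares hold for those settings and were not measured for the members.

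The difference between groups moved with expression level over the whole array, and all 29 members lay above the median gene level of 7.10. Of all genes, 37.1% had a positive difference. Among the brighter 9969 genes it was 53.6%. Split into deciles by level, from 1 (dimmest) to 10, genes of decile 3 had a median difference of -0.08 and genes of decile 9 one of 0.05. The members sat in the upper deciles, 28 of them in the top 4 and 11 in the brightest. Set against the median of its own decile, a member's difference was positive for 26 of 29, with a median of 0.10. Rela, Nfkbib and Map3k7 lay below their decile's median, by -0.02, -0.02 and -0.13.

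**Figure D3:**
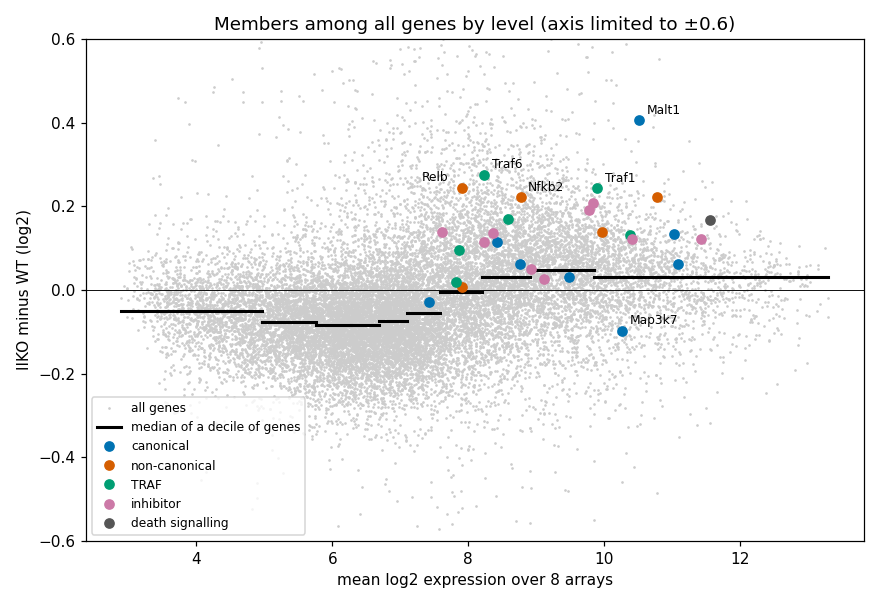
IIKO minus WT (log2) against the mean log2 level over 8 arrays, for all genes (grey), the median of each decile of genes by level (black lines) and the members by branch (colours); the vertical axis is limited to ±0.6 and leaves out genes beyond it. All members but Rela, Nfkbib and Map3k7 lie above the black line of their decile.

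By branch, the median difference was 0.22 over the 5 non-canonical members (0.19 against genes of the same level decile) and 0.15 over the 6 TRAF and TANK members (0.12). It was 0.12 over the 9 members grouped as inhibitors (0.09) and 0.06 over the 8 canonical members measured (0.03). Positive differences were found for all 20 members outside the canonical branch and Cflar and for 6 of its 8. After a further quantile normalization Map3k14, Traf5, Nfkbib, Tnip1 and Rela turned negative. The order of the branches depended on single arrays: the non-canonical median was 0.14 without IIKO array 1 and 0.13 without WT array 4, below the TRAF medians of 0.15 and 0.14 in those fits. With probe sets averaged per gene it was 0.14, also below the TRAF median. The differences between branches were not tested. Chuk, not measured here, serves both branches, and the cIAPs and TRAF2 also act at the TNF receptor, so the branches share functions.

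The canonical branch held the member with the largest difference, and its subunits differed little. Malt1, the paracaspase that carries TCR signals to IKK, was at 10.75, 11.01, 10.31 and 10.79 in the 4 IIKO arrays and at 10.21, 10.19, 10.39 and 10.45 in the 4 WT arrays. IIKO arrays 1, 2 and 4 lay above every WT array, while IIKO array 3 lay among them. The difference was 0.41 ± 0.13 (SE), a fold of 1.33 (limma adjusted p = 0.195). Without IIKO array 3 it was 0.54 (adjusted p = 0.0788), and without IIKO array 2 it was 0.31.

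Its partner Bcl10, the adaptor that filaments build on, was at 8.45, 8.54, 8.48 and 8.43 in IIKO and at 8.48, 8.40, 8.35 and 8.21 in WT. The ranges overlapped through WT array 1, and the difference was 0.11 ± 0.06 (adjusted p = 0.381), or 0.07 without WT array 4. Tab2, which links TAK1 to ubiquitin chains, was at 11.15, 11.15, 11.05 and 11.02 in IIKO and at 10.90, 10.87, 11.10 and 10.97 in WT, where array 3 reached into the IIKO range. Its difference was 0.13 ± 0.07 (adjusted p = 0.322). Map3k7, which encodes TAK1 itself, went the other way. It was at 10.15, 10.23, 10.28 and 10.21 in IIKO and at 10.42, 10.40, 10.24 and 10.21 in WT, a difference of -0.10 ± 0.06 (adjusted p = 0.445).

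The subunits of the canonical dimers were close in both groups. Rel, which encodes c-Rel, was at 11.14, 11.15, 11.27 and 10.93 in IIKO and at 11.02, 11.26, 10.92 and 11.03 in WT. Its ranges lay almost on each other, with a difference of 0.06 (95% confidence interval -0.14 to 0.26) that ran from 0.01 without IIKO array 3 to 0.13 without WT array 2. Rela, the p65 subunit, was at 9.48, 9.52, 9.44 and 9.58 in IIKO and at 9.50, 9.46, 9.40 and 9.53 in WT, a difference of 0.03 (-0.09 to 0.15). The 2 IKK subunits measured showed as little: Ikbkb, the kinase IKKβ, differed by 0.06 ± 0.05 and Ikbkg, the scaffold NEMO, by -0.03 ± 0.06. These intervals hold no difference as large as 0.5 log2 for any of the 4.

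The non-canonical branch had higher means in IIKO for all 5 members (4 after a further quantile normalization, when Map3k14 turned negative), with 4 of them between 0.14 and 0.24 log2. Nfkb2, which encodes p100 and p52, was at 8.91, 8.94, 8.92 and 8.76 in IIKO and at 8.83, 8.64, 8.59 and 8.58 in WT. Only IIKO array 4 and WT array 1 crossed. The difference was 0.22 ± 0.07 (fold 1.17, adjusted p = 0.194). Relb, the partner of p52, was at 8.14, 8.12, 8.10 and 7.73 in IIKO and at 7.86, 8.02, 7.80 and 7.42 in WT. In each group array 4 was the lowest, and the difference was 0.24 ± 0.13 (adjusted p = 0.355). Without WT array 4 it was 0.13. Relb lies on chromosome 7, as do Bcl3, Nfkbid and Nfkbib, and Nfkbie lies on chromosome 17. Of the 57 genes that passed over the whole array, 17 lie on chromosome 7 and 18 on chromosome 17. Over the 24 members outside these chromosomes the median difference was 0.13, and 22 were positive.

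The cIAP genes Birc2 and Birc3 encode ubiquitin ligases that keep NIK low. Birc2 was at 11.14, 10.96, 10.87 and 10.59 in IIKO and at 10.76, 10.63, 10.62 and 10.67 in WT, so that IIKO array 4 lay below every WT array and the other 3 above. Its difference was 0.22 ± 0.10 (adjusted p = 0.300), and 0.14 without IIKO array 1. A further Birc2 probe set, dimmer, was at 8.51 in IIKO and 8.50 in WT, a difference of 0.01, so the probe sets of this gene disagreed. Birc3 was at 10.20, 10.15, 9.99 and 9.81 in IIKO and at 9.93, 10.07, 9.82 and 9.78 in WT, again with IIKO array 4 the lowest of its group, and differed by 0.14 ± 0.10 (0.08 without IIKO array 1 and 0.21 without IIKO array 4). Map3k14, the kinase NIK, differed by 0.01 ± 0.07 (95% confidence interval -0.14 to 0.16), and NIK is known to be set mostly by protein turnover.

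All 6 measured TRAF branch members had higher means in IIKO, except Traf5 after a further quantile normalization. Traf1, an adaptor of TNF receptors that NF-κB itself induces, was at 10.14, 10.08, 10.11 and 9.75 in IIKO and at 9.80, 9.82, 9.73 and 9.75 in WT. IIKO arrays 1 to 3 lay above every WT array, and IIKO array 4 lay within the WT range. The difference was 0.24 ± 0.09 (fold 1.18, adjusted p = 0.213), and without IIKO array 4 it was 0.33 (adjusted p = 0.0652), the lowest adjusted p of any member in any alternative.

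Traf2, the adaptor that recruits cIAPs, was at 8.66, 8.79, 8.64 and 8.60 in IIKO and at 8.66, 8.51, 8.38 and 8.45 in WT. Apart from WT array 1 the groups were separate, and the difference was 0.17 ± 0.07 (adjusted p = 0.265). Tank, which binds TRAFs and the kinase TBK1, was at 10.48, 10.53, 10.48 and 10.30 in IIKO and at 10.32, 10.36, 10.28 and 10.32 in WT. IIKO array 4 alone fell among the WT arrays, and the difference was 0.13 ± 0.06 (adjusted p = 0.300).

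Traf6, which acts after Toll-like and IL-1 receptors, was at 8.12, 8.31, 8.88 and 8.18 in IIKO and at 8.16, 7.93, 8.05 and 8.24 in WT. IIKO array 3 carried most of its difference of 0.28 ± 0.15 (adjusted p = 0.362), which was 0.11 without that array. That array also had the highest myeloid marker mean of all 8, at 6.43. Its part in the Traf6 value was not tested. Traf4 and Traf5 differed by 0.10 ± 0.09 and 0.02 ± 0.11. Without WT array 1 the Traf4 difference was 0.19 and without WT array 4 it was 0.06, and Traf5 had a negative difference without IIKO array 3 or 4 or without WT array 1 or 3.

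Inhibitors and feedback regulators had higher means in IIKO for 9 of 9 (7 after a further quantile normalization, when Nfkbib and Tnip1 turned negative), from 0.03 to 0.21 log2. Nfkbiz, the nuclear IκBζ that acts with NF-κB on a subset of genes, was at 9.86, 9.996, 9.74 and 9.89 in IIKO and at 9.69, 9.86, 9.61 and 9.57 in WT. WT array 2 reached into the IIKO range, and the difference was 0.19 ± 0.08 (adjusted p = 0.253). Nfkbia, the IκBα that NF-κB induces to end its own activity, was at 10.51, 10.59, 10.44 and 10.37 in IIKO and at 10.47, 10.45, 10.24 and 10.26 in WT. IIKO arrays 1 and 2 lay above every WT array and WT arrays 3 and 4 below every IIKO array, with a difference of 0.12 ± 0.07 (adjusted p = 0.408). Cyld, a deubiquitinase that restrains IKK, was at 11.54, 11.53, 11.38 and 11.47 in IIKO and at 11.33, 11.41, 11.33 and 11.37 in WT, where only IIKO array 3 and WT array 2 crossed.

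Cyld differed by 0.12 ± 0.06 (adjusted p = 0.295). Nfkbid, which encodes the nuclear IκBNS, was at 7.62, 7.70, 7.66 and 7.75 in IIKO and at 7.67, 7.42, 7.55 and 7.54 in WT, a difference of 0.14 ± 0.06 (adjusted p = 0.298). WT array 1 stood within the IIKO range and the other WT arrays below it. Tnfaip3, the deubiquitinase A20, had the widest WT spread of any member (SD 0.27), and its difference was 0.21 ± 0.13 (adjusted p = 0.420). Without WT array 3, the lowest, it was 0.08. Bcl3 (0.14 ± 0.11), a nuclear IκB, and Nfkbie (0.11 ± 0.09), IκBε, differed by a like amount. Both stayed positive but changed in size when single arrays were left out. Without IIKO array 1 the Bcl3 difference was 0.04, and without IIKO array 4 it was 0.23. That of Nfkbie was 0.07 without IIKO array 2 or WT array 3 and 0.20 without IIKO array 4. Tnip1 (0.05 ± 0.05), which binds A20, and Nfkbib (0.03 ± 0.06), IκBβ, differed least.

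Cflar, which encodes the caspase-8 inhibitor c-FLIP and was given no branch, was at 11.60, 11.64, 11.68 and 11.67 in IIKO and at 11.60, 11.20, 11.49 and 11.63 in WT. The IIKO arrays lay close together (SD 0.03) and WT array 2 lay lowest. The difference was 0.17 ± 0.09 (adjusted p = 0.350), or 0.08 without WT array 2, and the 2 dimmer probe sets of the gene differed by 0.22 and 0.24.

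Within the IIKO group, the lowest value often fell to the same array. IIKO array 4 was the lowest of the IIKO arrays for 15 of the 29 members, and it was the lowest for 20.9% of all genes. It was the highest for 2 members, against 31.5% of all genes. In WT, arrays 1 and 2 were the highest for 11 and 12 members, against 27.3% and 24.1% of all genes. Averaged over the 29 members, the arrays stood at 9.41, 9.44, 9.39 and 9.31 in IIKO and at 9.31, 9.28, 9.21 and 9.23 in WT, where IIKO array 4 and WT array 1 had the same value to 2 decimals. IIKO array 4 also had the lowest mean of its group for the Treg and T cell markers, at 11.82 (11.86 to 11.87 in the other IIKO arrays), for the myeloid markers, at 6.05, and for the NF-κB target genes, at 8.39 (8.54 to 8.61 in the other IIKO arrays). The same held for receptors that signal to NF-κB (8.99), other signalling components (9.07) and NK and CD8 T cell markers (6.67). It did not hold for markers of B cells or activated conventional T cells. Over all genes the mean of IIKO array 4 was the highest of its group, at 7.2985. The part of these list means in the members' values was not tested. Without IIKO array 4, 10 members had an unadjusted limma p under 0.05, all higher in IIKO, against 5 with it, and 0 passed over all genes. The share of all genes under that p, in both directions, rose too, from 17.3% with that array to 20.3% without it.

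**Figure D4:**
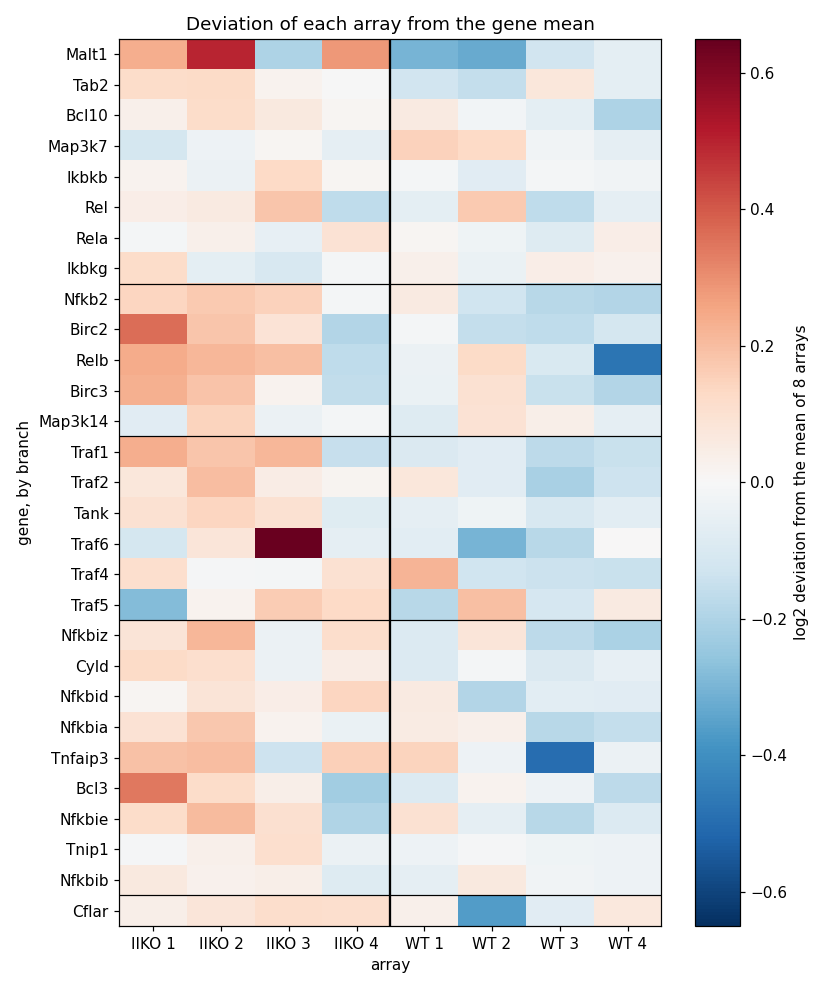
Deviation of each array from the gene's mean over 8 arrays (log2, colour), for the 29 members in rows grouped by branch and the 4 IIKO arrays (left of the line) and 4 WT arrays (right) in columns. IIKO arrays 1 and 2 are mostly red, IIKO array 4 holds the lowest IIKO value of 15 members, and WT arrays 3 and 4 are mostly blue.

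Genes around the pathway were read from 3 further lists. Of 17 measured receptors that signal to NF-κB, 0 passed over all genes and 11 had positive differences, with a median of 0.04. Set against the median of its own level decile, a receptor's difference was positive for 10, with a median of 0.02. The costimulatory receptors of Tregs Tnfrsf18 (GITR), Tnfrsf4 (OX40) and Tnfrsf9 (4-1BB), named after their values were seen, differed by 0.04 ± 0.07, -0.04 ± 0.09 and 0.03 ± 0.12. The receptors with the smallest p were Tnfrsf11a (RANK), Tnfrsf13c (the BAFF receptor) and Il18r1, a chain of the IL-18 receptor. Tnfrsf11a was at 6.89 ± 0.06 in IIKO and 7.10 ± 0.06 in WT (SD, n = 4 arrays each), and Tnfrsf13c at 8.12 ± 0.10 in IIKO and 8.40 ± 0.14 in WT. For both, every IIKO array lay below every WT array (limma adjusted p = 0.164 and 0.172), as held for 7.69% of all genes. Il18r1 was at 10.90 ± 0.15 in IIKO and 10.60 ± 0.16 in WT (adjusted p = 0.189), with overlapping groups.

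Of 33 other signalling components, 0 passed and 24 had positive differences, with a median of 0.06. Against the median of the gene's own level decile, 19 were positive, with a median of 0.01. Before adjustment, 4 higher and 1 lower had a limma p under 0.05. Over all genes, 5.27% were higher and 12.0% lower at that p, and 8.95% of the brighter 9969 genes were higher. Tax1bp1, an adaptor of A20, was at 11.24 ± 0.07 in IIKO and 11.05 ± 0.08 in WT, with every IIKO array above every WT array (adjusted p = 0.196). The groups were apart in that direction for 2.83% of all genes and 4.95% of the brighter 9969. Tab3, a relative of Tab2 that also links TAK1 to ubiquitin, differed by 0.20 ± 0.07 and Nkiras1, a Ras-like protein that binds IκB, by -0.32 ± 0.13.

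Of 31 measured genes that NF-κB is known to induce, 0 passed, 20 had positive differences and the median was 0.03. Against the median of the gene's own level decile, 16 were positive, with a median of 0.02. Before adjustment, 3 higher and 1 lower had a limma p under 0.05. Over all genes, 5.27% were higher and 12.0% lower at that p, and 8.95% of the brighter 9969 genes were higher. Irf4, a transcription factor of effector Tregs, was at 8.55 ± 0.09 in IIKO and 8.29 ± 0.10 in WT (adjusted p = 0.160), and Il2 at 6.45 ± 0.20 in IIKO and 6.01 ± 0.18 in WT (adjusted p = 0.157). Ier3, a survival gene on chromosome 17, was at 6.72 ± 0.21 in IIKO and 7.13 ± 0.11 in WT (adjusted p = 0.145). For these 3 genes the groups did not overlap, with Irf4 and Il2 higher in IIKO and Ier3 lower. Groups were apart and higher for 2.83% of all genes and 4.95% of the brighter 9969, and apart and lower for 7.69% of all genes. Il2 and Ier3 lay below the median gene level. The remaining genes of this list given here were named after their values were seen. Cxcl10, a chemokine, had the largest difference of the list, 0.75 ± 0.24 (fold 1.68, adjusted p = 0.195), at 8.52, 9.37, 8.48 and 8.00 in IIKO and at 7.81, 7.61, 7.78 and 8.19 in WT, where IIKO array 4 lay below WT array 4. The cytokine genes Csf2 and Tnf differed by 0.43 ± 0.21 and 0.29 ± 0.16, and the adhesion molecule gene Vcam1 by 0.37 ± 0.19. Csf2 lay below the median gene level. It was at 7.055 and 6.91 in IIKO arrays 1 and 3. In IIKO arrays 2 and 4 it was at 6.23 and 6.04, within the WT range of 5.88 to 6.29. Vcam1 was highest in IIKO array 3, at 8.25, the array with the highest myeloid marker mean. The part of that array in the Vcam1 value was not tested. Ccnd2 (0.01 ± 0.07), Bcl2l1 (-0.01 ± 0.09) and Icam1 (0.11 ± 0.08) differed less. Of the 31 genes, 11 had negative differences. After Ier3 the most negative were Ccl5 (-0.16 ± 0.12), Myc (-0.14 ± 0.11) and Cd83 (-0.14 ± 0.099).

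Members with and without promoter matches had median differences close to each other. Over the 14 members with 1 or both spellings the median difference was 0.13 log2, and over the 11 with a window and without a match it was 0.11, a contrast that was not tested. Nfkb2 and Tnfaip3 among the matched genes had differences of 0.22 and 0.21, while Map3k7 and Rel had -0.10 and 0.06. Traf1, with 0.24 one of the larger differences, had no match in its window.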

How the data were processed

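RNA of 8 sorted cell samples (4 IIKO and 4 WT, grouped by their titles) was hybridised to 1 Affymetrix array each. The authors deposited log2 expression per probe set; per the submitters' processing notes they used affy and RMA, which subtracts background, brings arrays to common quantiles and summarizes probes. Tool versions: not given in the sources used here. The log2 scale follows from the values, 2.54 to 13.72. Background could not be examined.

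Of 34760 probe sets, 21640 carried 1 gene symbol in the platform annotation, 1321 several and 11799 none; only the first kind was used. The brightest probe set per gene gave 19937 genes, with no filter on dim ones. Chromosomes came from a RefSeq gene table (GRCm38.p6, 21553 probe sets matched by gene identifier), without coordinates, since the array annotation names no build. IIKO minus WT was fitted with lmFit and eBayes (limma 3.58.1, R 4.3.3), two-sided, adjusted after Benjamini and Hochberg over all genes (threshold 0.05). The fit was tested on 10 simulated data sets of 19937 genes with independent noise. Figures were drawn with matplotlib 3.10.9.

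Members, branches and lists were chosen with earlier results of these data known. Values in every array are given for Rel, Rela, Nfkbia and, per branch, up to 4 members with the smallest p. Of the 3 further pathway lists the 3 genes with the smallest p are named. Genes of the cell type marker lists were not named by this rule. No array repeated another (smallest SD of a difference between arrays 0.185). Alternatives were a block for the replicate number, another quantile normalization, centring on medians, the brighter 9969 genes, a trended and robust prior, array weights, probe sets averaged per gene, chromosomes 7 and 17 left out, a threshold of 0.01, and each array left out.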

Additional observations from a re-analysis of the deposited data

Results flagged for a closer look

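In 6 cases 1 array of a group stood far from the other 3, by Dixon's test at its 95% critical value for 4 samples; chance alone gives about 1 in 20 groups, and 58 groups were looked at. Relb in IIKO array 4 was at 7.73, below 8.10 to 8.14 in the other IIKO arrays, and Traf1 in the same array was at 9.75, below 10.08 to 10.14. Tnfaip3 in IIKO array 3 was at 9.70, below 9.99 to 10.04. Among the WT arrays, Traf4 in array 1 was at 8.08, above 7.71 to 7.73. In WT array 2, Ikbkb was at 8.68, below 8.73 to 8.74, and Ikbkg at 7.38, below 7.45 to 7.47, both by less than 0.1 log2.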

How the results depend on the processing

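In none of the 17 alternatives did a member pass over all genes; adjusted limma p of members ran down to 0.0652. Of 459 member values recomputed, 446 kept their sign and side of the threshold and 13 changed sign, in 6 members with differences near 0. After a further quantile normalization the differences were -0.0117 for Rela, -0.0275 for Map3k14, -0.0067 for Traf5, -0.0244 for Nfkbib and -0.0003 for Tnip1, the canonical median was 0.0296 and 3 members were higher at an unadjusted p under 0.05. That count was 8 with the replicate number as a block, 9 with median centring, and 8 each with trend and robust variance and with array weights. The share of all genes under that p, in both directions, was 15.1% after the further quantile normalization. In the order just given it was 17.3%, 15.2%, 17.5% and 17.7%. Leaving out 1 array moved the count of higher members between 3 and 10, and the share of all genes between 12.7% and 20.3%. It moved the median over members between 0.1042 and 0.1572, and the medians between 0.0414 and 0.0972 (canonical), 0.1265 and 0.2625 (non-canonical), 0.1171 and 0.2045 (TRAF) and 0.0834 and 0.1606 (inhibitors). With 1 array left out, Traf5 ran from -0.038 to 0.1148 (negative without IIKO 3 or 4 or WT 1 or 3), Map3k14 from -0.0393 to 0.0391 (negative without IIKO 2 or WT 1 or 4) and Ikbkg from -0.0745 to 0.0003 (positive without IIKO 3). The 57 genes that passed over the whole array numbered 31 with the replicate block and 21 at a threshold of 0.01. They numbered 32 to 50 without 1 array (32 without IIKO 2 or WT 1, 33 without WT 3, 35 without IIKO 3, 36 without IIKO 1). Without chromosomes 7 and 17, which held 17 and 18 of the 57, 5 genes passed. The cause of these moves was not tested. The labels do not say whether the replicate numbers pair the arrays. Deviations of arrays with the same number correlated between -0.07 and 0.22 across genes. Those of arrays with different numbers correlated between -0.14 and 0.10. These overlapping ranges cannot settle whether the arrays were paired.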
